A study of Mus musculus with 6 samples.

Results

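The piRNA pathway was followed in mouse oocytes that had grown in culture or in the ovary, through 10 of its genes: Piwil2, Tdrd1, Tdrd9, Ddx4, Mael, Asz1, Tdrkh, Gpat2, Mov10l1 and Pld6. They were chosen by symbol, and all 10 had a row in the authors' deposited table of 10896 genes. RNA was taken from 6 samples of 50 oocytes at the germinal vesicle stage, in which meiosis is still arrested, all from (C57BL x CBA) F1 females. For 3 samples growth took place in vitro, in follicles freed with collagenase from pooled ovaries of 2 to 5 females aged 10 to 12 days and cultured on membrane inserts in MEM-alpha medium with insulin, transferrin, selenium, 5% fetal bovine serum and FSH at 0.01 µg/ml. For the other 3, growth took place in vivo and oocytes were released with a needle from ovaries of females aged 7 to 11 weeks into M2 medium with dbcAMP. Growth in culture and age of the donor changed together, so their parts in any difference cannot be told apart.

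Piwi-interacting RNAs, or piRNAs, are small RNAs of germ cells that guide Piwi proteins to the transcripts of transposons. Long precursor RNAs are unwound and cut at the surface of mitochondria, the pieces are loaded onto Piwi proteins and trimmed, and in the perinuclear germ granule called nuage the loaded proteins cut transposon RNA and so make further piRNAs. In mice the pathway is best known from the testis, where loss of most of these genes stops spermatogenesis, while mouse oocytes hold both piRNAs bound to Piwil2 and small interfering RNAs made by Dicer1.

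The authors gave 1 mean per gene and group, in reads normalised between samples, and a PPEE, taken to be the posterior probability of equal expression in both groups. A gene was called where the PPEE was below 0.05, which held for 15.1% of all genes, 8.31% as lower and 6.75% as higher in vitro. These means carry no SD. For means up to 600, whole reads of each library could be solved from the means, since a mean is a sum of whole reads times 1 fixed step per library. The libraries are called A, B and C within a group and are not tied to the replicate numbers of the samples. Where a group is given 3 values, they are those of A, B and C in that order. Both groups were solved for 8171 genes, among them 6 of the 10 genes. Summed over these 8171 genes, a library had 906202 to 1362635 reads, which leaves out the reads of all other genes. All 12 oocyte marker genes were in the table, at 31.8 to 37810 mean normalised reads in vitro and 19.1 to 43120 in vivo, and 3 of them (Bmp15, Nlrp5 and Kit) were called lower in vitro, with 0 called higher and a median log2 ratio of -0.31. Of 14 granulosa cell markers 9 were in the table, with a summed mean of 478 in vitro and 294 in vivo. Of these, 4 (Fshr, Inha, Inhba and Hsd3b1) were called higher in vitro and 0 lower. The mean was lower in vitro for 4 others (Kitl, Nr5a2, Cyp11a1 and Gja1), none of them called. Over the in vivo libraries Fshr, Inhba and Hsd3b1 had only 8, 8 and 12 reads. Amh, Amhr2, Foxl2, Fst and Wt1 were not matched and are not analysed here. Of 10 markers of theca and stroma 0 were matched, and of 8 blood and immune markers 1 was, Cd68, at 14.1 in vitro and 10.8 in vivo, which was not called. The part of these marker differences in the results on piRNA genes was not tested.

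Of the 10 genes, 3 were called lower in oocytes grown in vitro, namely Piwil2, Tdrd9 and Tdrd1, against 8.31% of all genes. By the PPEE 0 were called higher in vitro, against 6.75% of all genes. The group mean was lower in vitro for 9 of the 10, Mael being the exception, against 5330 of all 10896 genes. The median log2 ratio of in vitro over in vivo was -0.55 for the 10 genes and 0.02 for all genes of the authors' deposited table. Together the 10 genes had a summed mean of 6624 normalised reads in vitro and 9064 in vivo. In samples of whole oocytes, fewer oocytes holding a transcript and fewer copies of it in each cannot be told apart.

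The 10 genes covered a wide range of abundance. Per kb of gene length, Ddx4 was the highest in both groups, at 826 normalised reads per kb in vitro and 922 in vivo. Asz1 stood at 476 in vitro and 602 in vivo, Tdrd1 at 421 in vitro and 718 in vivo, and Mael at 342 in vitro and 267 in vivo, all per kb. Tdrkh (150 in vitro, 162 in vivo) and Tdrd9 (66.5 in vitro, 163 in vivo) formed a middle group on the same scale. Gpat2, Mov10l1, Pld6 and Piwil2 were rare, with means between 3.99 and 17.8 normalised reads per kb in vitro; in vivo the means of Pld6, Piwil2 and Mov10l1 were 10.4, 11.3 and 23.4, and the libraries of Gpat2 ran to 34.7. Piwil2 was the lowest of the 10 in vitro, at percentile 7.00 of all genes per kb, and second lowest in vivo, at percentile 22.4, just above Pld6. Among the lowest genes the ranges over libraries mostly overlapped between neighbours. In vitro, the range of Pld6 (5.27 to 12.5 normalised reads per kb) overlapped that of Mov10l1 (9.97 to 18.6) and this overlapped that of Gpat2 (11.0 to 26.8), while Piwil2 (3.28 to 4.68) lay below all of them. Within each single in vitro library, Gpat2 lay above Mov10l1 and Mov10l1 above Pld6. In vivo, the ranges of Pld6 (7.31 to 12.8) and Piwil2 (8.74 to 14.1) overlapped, and their order differed between libraries.

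**Figure D1:**
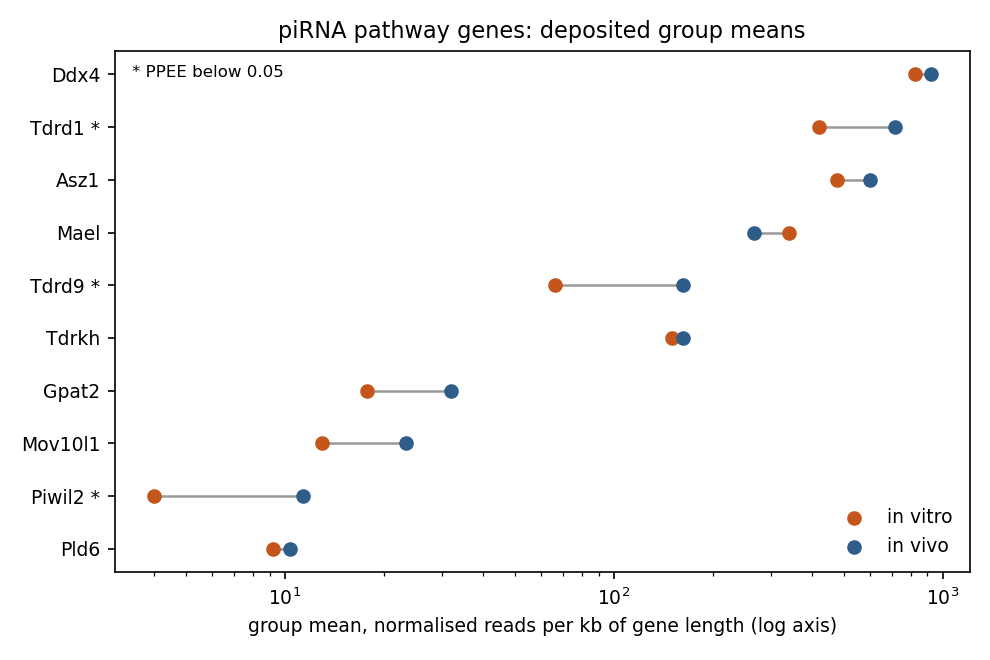
Group means of the 10 piRNA pathway genes in normalised reads per kb of gene length (log axis), in vitro in orange and in vivo in blue, ordered by the in vivo value, with called genes starred. Mael is the single gene whose in vitro point lies to the right of its in vivo point, and Piwil2, Tdrd9 and Tdrd1 are the starred ones.

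Tdrd9 and Tdrd1 were both lower in vitro, and Mael was the gene with the opposite sign, so the RefSeq promoter windows of these 3 genes are shown, from 250 bases before to 50 bases after the first annotated start. They are on build GRCm38.p6: Tdrd9 at chr12:111971309-111971608 on the plus strand, Tdrd1 at chr19:56825959-56826258 on the plus strand and Mael at chr1:166238695-166238994 on the minus strand. Capitals mark the palindromic E-box CACGTG, which proteins such as MYC, MAX and USF1 recognise, and the motif CCAAT on either strand, which the factor NF-Y recognises.
Tdrd9: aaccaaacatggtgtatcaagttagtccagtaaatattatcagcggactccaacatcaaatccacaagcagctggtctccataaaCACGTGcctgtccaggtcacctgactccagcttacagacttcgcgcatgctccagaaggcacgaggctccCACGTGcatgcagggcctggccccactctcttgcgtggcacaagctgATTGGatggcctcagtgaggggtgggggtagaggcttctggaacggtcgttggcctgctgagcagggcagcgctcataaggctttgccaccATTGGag
Tdrd1: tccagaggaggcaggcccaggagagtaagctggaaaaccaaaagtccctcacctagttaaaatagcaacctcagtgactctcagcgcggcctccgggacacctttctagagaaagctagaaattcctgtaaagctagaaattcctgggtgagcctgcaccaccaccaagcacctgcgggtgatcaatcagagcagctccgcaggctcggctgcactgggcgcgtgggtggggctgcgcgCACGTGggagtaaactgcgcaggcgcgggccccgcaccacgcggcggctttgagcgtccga
Mael: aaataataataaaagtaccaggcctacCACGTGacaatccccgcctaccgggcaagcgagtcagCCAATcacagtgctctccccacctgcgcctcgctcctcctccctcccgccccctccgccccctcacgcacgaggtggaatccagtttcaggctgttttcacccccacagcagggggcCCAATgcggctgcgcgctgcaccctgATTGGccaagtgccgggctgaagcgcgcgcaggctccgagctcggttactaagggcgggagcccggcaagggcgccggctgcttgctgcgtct
A window was found for 9 of the 10 genes, all but Piwil2. The E-box CACGTG was present in 6 of the 9 first windows: Ddx4, Mael, Mov10l1, Pld6, Tdrd1 and Tdrd9. It was present in 10.4% of the first windows of 8798 genes of the table, and in 11.7% of the 7166 of these with at least 10 CpG, the fewest that any of the 9 windows held. Tdrd9 held it at 165 and at 95 bases before the start, Tdrd1 at 11 bases before it. The match did not separate the called genes from the others, since it was in the windows of Mael and Ddx4 too, and of 746 genes called lower in vitro 10.3% had it. CCAAT was in 7 of the 9 windows, all but those of Asz1 and Tdrd1, against 40.1% of the table's genes, and Tdrkh held 5 copies. The motif TAATTG, a core that homeobox proteins such as Nobox recognise, was found in 1 of the 9 windows, against 5.29% of the table's genes. GGGCGG, which Sp1 recognises, was in 6 of the 9, against 63.2% of them. All motifs were searched on both strands, ATTGG, the reverse of CCAAT, can share bases with TAATTG, and a match in these windows is a description and does not show binding. The median number of CpG was 20 over the 9 windows and 21 over the table's genes. Of 9 other piRNA genes with a window, 2 held CACGTG, Fkbp6 and Piwil1.

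**Figure D2:**
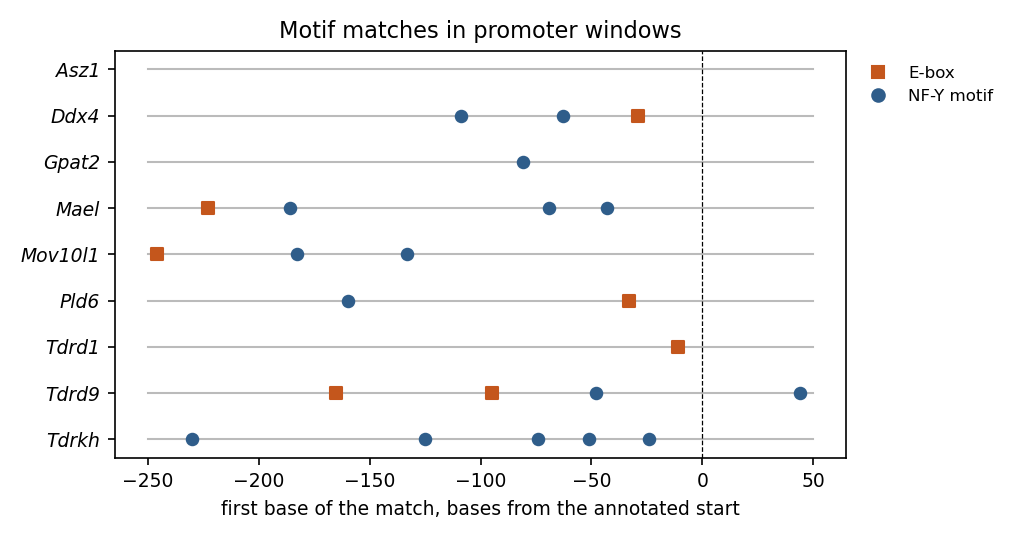
Matches of the E-box (squares) and of the NF-Y motif (circles) along the first promoter window of 9 piRNA pathway genes, in bases from the annotated start, which the dashed line marks. E-boxes lie in 6 windows, with 2 in that of Tdrd9.

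The steps before amplification, in which precursors are unwound, cut and trimmed at mitochondria, are represented by Mov10l1, Pld6, Gpat2, Asz1 and Tdrkh. Of these 5 genes 0 were called, against 15.1% of all genes, a share at which 0 of 5 does not set them apart, while all 5 had a lower mean in vitro, and the median log2 ratio was -0.34 in the authors' deposited table. Limma voom also called 0 of the 4 that could be tested, with Gpat2 at an unadjusted p of 0.0120. Mov10l1, the RNA helicase that binds piRNA precursors, had 75.4, 40.4 and 42.2 normalised reads in vitro, against 51.7, 112 and 120 in vivo. In vitro library A lay above in vivo library A, so the groups overlapped, although the means differed 1.80-fold (52.7 ± 19.7 against 94.6 ± 37.3 normalised reads, in vitro and in vivo, n = 3 libraries each, SD). In the authors' deposited table Mov10l1 had a PPEE of 0.690. Limma voom on the recovered reads gave a log2 ratio of -0.74 with a standard error of 0.36 (adjusted p = 0.188).

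Gpat2 encodes an acyltransferase of the mitochondrial outer membrane that binds Piwil2 in mouse germ cells. It had nearly the same ratio as Mov10l1 with a smaller spread in vivo. Its libraries stood at 70.8, 29.0 and 40.9 normalised reads in vitro, against 88.1, 73.5 and 91.5 in vivo. Every in vitro library was below every in vivo one, with library A of the in vitro group close to library B of the in vivo group. Its mean was 1.80-fold lower in vitro, the authors' deposited table gave a PPEE of 0.0741, and limma voom gave a log2 ratio of -0.90 with a standard error of 0.31 (adjusted p = 0.0758). Gpat2 thus missed both thresholds. Without in vitro library A limma voom called it lower, at a log2 ratio of -1.28 (adjusted p = 0.00929, range over its alternatives 0.00929 to 0.257). That fit called 805 of all 8171 genes lower, against 380 with all libraries.

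Pld6, a mitochondrial nuclease counterpart of fly Zucchini that cuts precursors, was counted with few reads. Before scaling it had 24, 9 and 14 reads in vitro, against 16, 22 and 20 in vivo. The groups overlapped widely, and the authors' deposited table gave a PPEE of 0.962 at a 1.13-fold lower mean in vitro. With 47 reads in vitro and 58 in vivo over all libraries, these counts did not separate the groups, and its log2 ratio by limma voom, -0.16 with a standard error of 0.45 (adjusted p = 0.834), changed sign to 0.19 without in vitro library B (adjusted p = 0.834).

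Asz1 and Tdrkh, which hold the machinery at the mitochondrial surface, were the abundant genes of these steps. Asz1, a scaffold protein with ankyrin repeats, averaged 829 normalised reads in vitro, against 1047 in vivo, and the authors' deposited table put its PPEE at 0.0589. That is a 1.26-fold lower mean, just outside the threshold. Tdrkh, whose tudor domain binds Piwi proteins while their piRNAs are trimmed, had the smallest spread relative to its mean of the 6 genes resolved into libraries. It had 389, 415 and 399 normalised reads in vitro, against 442, 442 and 414 in vivo. The groups overlapped by a narrow margin, limma voom gave a log2 ratio of -0.11 with a standard error of 0.14 (adjusted p = 0.616), and the PPEE was 1 in the authors' deposited table. In the GENCODE annotation Tdrkh shares exon sequence with Oaz3, which lies on the opposite strand, and whether the authors counted by strand is not given in the sources used here, so reads of both genes may be mixed. No exon of the other 9 genes overlapped another gene there.

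The Piwi protein and the nuage proteins that act with it held all 3 calls among 5 genes, against 8.31% of all genes called lower, and the difference between the 2 sets of 5 genes was not tested. Piwil2, the Piwi protein that binds piRNAs in mouse oocytes and cuts their targets, had 25, 19 and 13 reads in vitro, against 68, 78 and 38 in vivo. After scaling these were 23.0, 19.7 and 16.1 normalised reads in vitro and 55.0, 69.1 and 42.9 in vivo. The highest in vitro library was well below the lowest in vivo one. The mean was 2.84-fold lower in vitro, its PPEE in the authors' deposited table was 1.01e-06, and limma voom gave a log2 ratio of -1.46 with a standard error of 0.35 (adjusted p = 0.0228). The call by limma voom was kept without in vitro library A (adjusted p = 0.0128) and without in vivo library C (adjusted p = 0.0272). It was lost without in vitro library B (adjusted p = 0.0596) or C (adjusted p = 0.102) and without in vivo library A (adjusted p = 0.0820) or B (adjusted p = 0.102). These fits called 276, 64, 50 and 79 of all 8171 genes in that order, against 826 with all libraries. The log2 ratio of Piwil2 by limma voom stayed between -1.61 and -1.30 over all alternatives (adjusted p 0.0128 to 0.102).

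Tdrd9, a helicase with a tudor domain that in the mouse testis works with the Piwi protein Piwil4, was 2.45-fold lower in vitro (PPEE 3.94e-06 in the authors' deposited table). Its means were 320 normalised reads in vitro and 783 in vivo. The in vitro mean resolved into 391, 267 and 300 normalised reads. The in vivo mean was above the range in which reads were solved for all genes, and it had 2 whole solutions, 731, 966 and 651 or 42.8, 182 and 2123 normalised reads. In the first of these every in vivo library lies above every in vitro one, while in the second the groups overlap. The in vivo libraries of the second run from 42.8 to 2123 normalised reads. Other genes of the small RNA lists were solved at in vivo means of 400 to 600. Their SD over the in vivo libraries was 3.68% to 21.8% of the mean. Whole reads alone do not tell which solution is right, so Tdrd9 entered no test per library.

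Tdrd1 carries several tudor domains that bind methylated arginines of Piwil2. It averaged 2058 normalised reads in vitro and 3509 in vivo, a 1.71-fold lower level in vitro, and the authors' deposited table put its PPEE at 3.11e-06. It was the most abundant of the 3 called genes. Its means, like those of Ddx4 and Asz1, were too high to be resolved into libraries, so no spread between libraries can be given for them.

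Ddx4, the DEAD box helicase of nuage known as mouse vasa homolog, differed little from group to group. It averaged 2353 normalised reads in vitro and 2627 in vivo, 1.12-fold lower in vitro, and its PPEE in the authors' deposited table was 0.944. Ddx4 is a standard marker of germ cells, and Dazl, another, stood at 4849 in vitro and 4584 in vivo (PPEE 0.981 in the authors' deposited table). Neither was called. Dazl is 1 of the 12 oocyte markers, of which 8 had a lower and 4 a higher mean in vitro. Of these 12, 3 were called lower and 0 higher, with a median log2 ratio of -0.31. Whether the groups held equal germ cell RNA was not tested.

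Mael, a nuage protein named after fly maelstrom that is needed for transposon silencing in male mouse germ cells, was the one gene with a higher mean in vitro. Its libraries stood at 470, 535 and 581 normalised reads in vitro, against 369, 417 and 452 in vivo. Every in vitro library was above every in vivo library. The mean was 1.28-fold higher in vitro (528 ± 55.8 normalised reads in vitro, 413 ± 41.3 in vivo, n = 3 libraries each, SD), and its PPEE of 0.0514 in the authors' deposited table lay just outside the threshold. Limma voom gave a log2 ratio of 0.36 with a standard error of 0.15 (adjusted p = 0.129), and called it higher without in vitro library A (log2 ratio 0.44, adjusted p = 0.0321, range over its alternatives 0.0321 to 0.355). The fit without that library called 1268 of all 8171 genes higher, against 446 with all libraries.

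**Figure D3:**
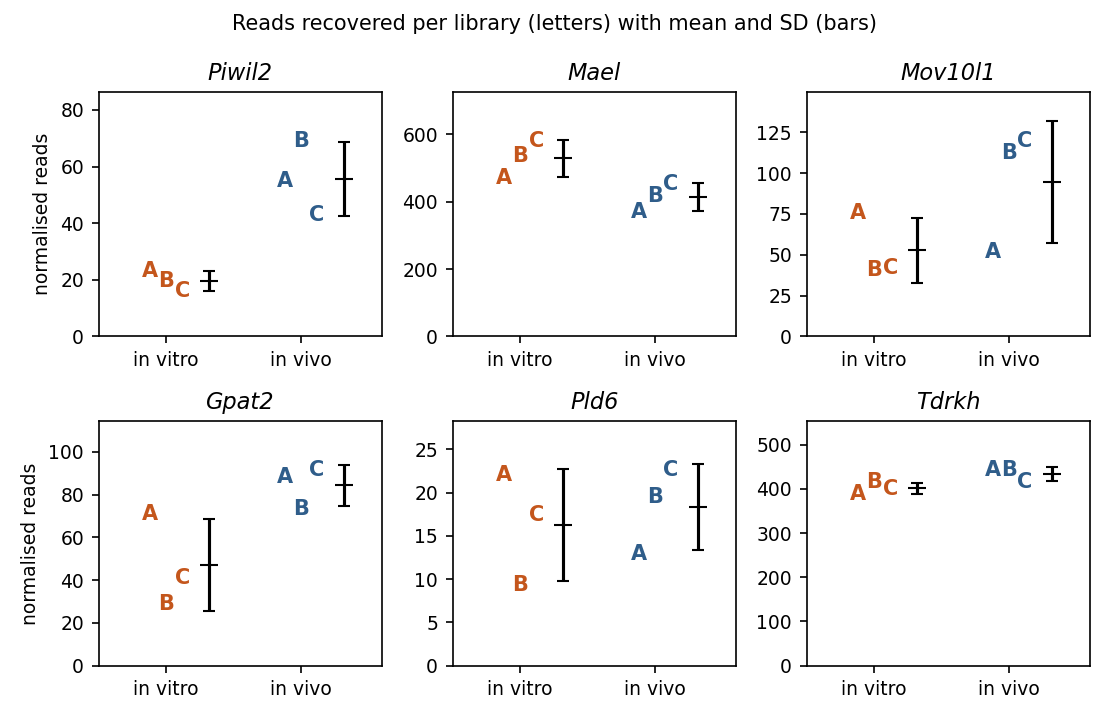
Normalised reads recovered in libraries A, B and C (letters) of the in vitro group in orange and the in vivo group in blue for 6 genes, with the mean and SD of each group in black and a separate axis from 0 for each gene. The groups are apart for Piwil2, Mael and Gpat2 and overlap for Mov10l1, Pld6 and Tdrkh.

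Among the 6 genes with reads per library, limma voom called 1 lower and 0 higher in vitro. Over all 8171 genes it called 10.1%, 4.65% as lower and 5.46% as higher, all by adjusted p. At an unadjusted p under 0.05 stood 3 of the 6, namely Piwil2, Gpat2 and Mael. The share of all genes under that unadjusted threshold is not given here, so this count cannot be set beside it. The groups did not overlap for 3 of the 6, against 33.8% of all recovered genes. Of these, Piwil2 and Gpat2 were lower in vitro (15.8% of all recovered genes) and Mael was higher (18.1%). Without in vitro library A limma voom called 2 lower and 1 higher of the 6, against 805 and 1268 of all 8171 genes. Without in vitro library B or C or in vivo library A or B it called 0 of the 6 in both directions. Over all genes these fits called 276, 64, 50 and 79 in that order. In vitro library A was the highest of its group for 4 of the 6 genes (Gpat2, Mov10l1, Piwil2 and Pld6), and for 33.3% of all recovered genes. In vivo library C was likewise the highest of its group for 4 of the 6, and for 31.4% of all recovered genes. For Gpat2 and Mov10l1 in vitro library A stood at 70.8 and 75.4 normalised reads, well above 29.0 to 42.2 in the other in vitro libraries of the same genes. The share of in vitro library A in the results was not tested beyond leaving it out.

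The called genes were also among the longest of the 10. Piwil2, Tdrd1, Tdrd9 and Mov10l1 are 4053 to 4913 bases long in the authors' deposited table and had log2 ratios of -1.48, -0.77, -1.29 and -0.84. The 3 genes under 2000 bases, Mael, Pld6 and Asz1, had 0.36, -0.17 and -0.34 in the authors' deposited table. Across the 10 genes Spearman's rho of length and log2 ratio was -0.67, across 15 other piRNA genes -0.49, and across all 10896 genes -0.16, each a description over genes measured in the same libraries. Of all genes of at least 4000 bases 11.4% were called lower and 5.8% higher in vitro, against 3.28% lower and 8.05% higher of those under 2000 bases. The median log2 ratio was -0.05 in the long class, -0.07 between 2000 and 4000 bases and 0.17 in the short class, so the medians of the longer classes were close to each other. Ddx4, Tdrkh and Gpat2, between 2636 and 2850 bases, ranged from -0.11 to -0.84 at almost equal length. The part of gene length in the calls was not tested.

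**Figure D4:**
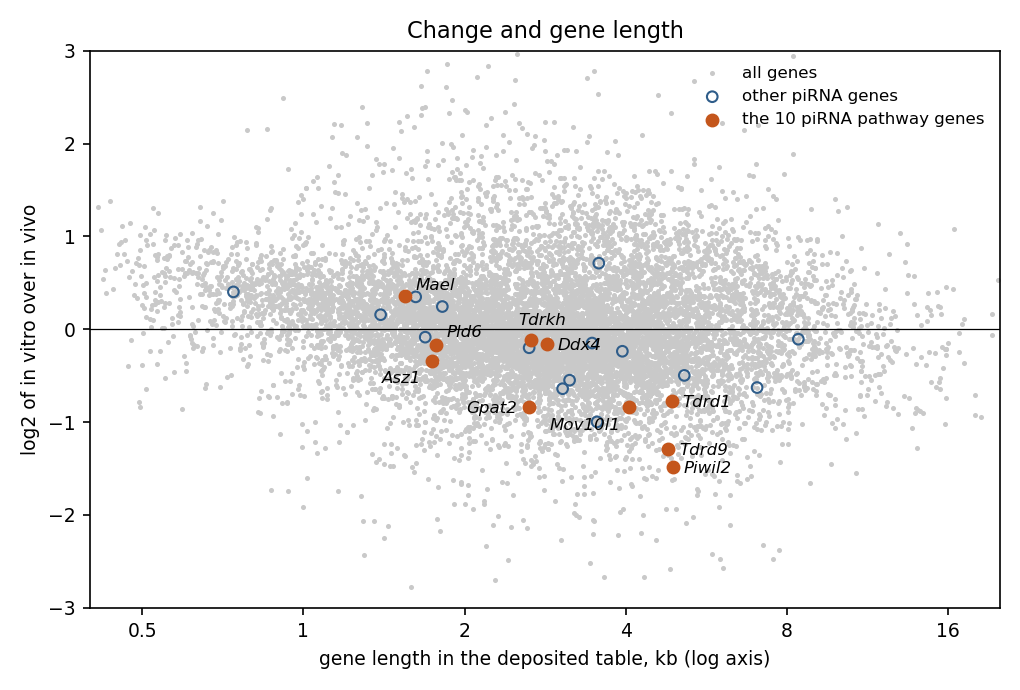
Log2 ratio of in vitro over in vivo against gene length in kb (log axis) for all genes in grey, 15 other piRNA genes as open circles and the 10 piRNA pathway genes as filled orange points. Piwil2 and Tdrd9, among the longest of the 10, lie lowest, while Mael, the shortest, lies above 0. Of all genes, 20 fall outside the axes.

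Genes with other parts in piRNA biology had 1 call in each direction. Of 21 such genes listed, 15 were in the table, and 1 was called lower and 1 higher in vitro, against 15.1% of all genes called in either direction, with 10 of the 15 means lower in vitro and a median log2 ratio of -0.15. Piwil4, Gtsf1l, Btbd18, Spocd1, Dnmt3c and Wdr77 were not matched and are not analysed here. Morc1, a chromatin ATPase that silences transposons in male mouse germ cells, fell 1.56-fold in vitro (PPEE 1.43e-06 in the authors' deposited table). Its libraries had 364, 274 and 262 normalised reads in vitro, against 483, 446 and 474 in vivo, with no overlap, and limma voom called it (log2 ratio -0.64, adjusted p = 0.0296). Tdrd12, a tudor protein with a helicase domain needed for secondary piRNAs in mouse testis, rose 1.27-fold, to a mean of 2826 in vitro, against 2219 in vivo (PPEE 1.85e-05 in the authors' deposited table). Tdrd12 and Tdrd9, both helicase and tudor proteins, were therefore called in opposite directions. In the authors' deposited table they are 1621 and 4809 bases long. Whether 1621 bases cover the whole Tdrd12 transcript was not tested. Piwil1, the other Piwi gene in the table, was far more abundant than Piwil2 in both groups, at 92.6 ± 16.4 normalised reads per kb in vitro, against 109 ± 18.4 in vivo (n = 3 libraries each, SD). Its groups overlapped (PPEE 0.910 in the authors' deposited table, limma voom adjusted p = 0.383).

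The RNA interference and microRNA machinery, the other small RNA system of oocytes, was called in both directions. Of 15 genes listed 12 were in the table. By the PPEE 2 were called lower and 2 higher in vitro, against 8.31% and 6.75% of all genes. The median log2 ratio was 0.24, against -0.55 for the 10 piRNA genes, a difference that was not tested. Ago2, the slicing Argonaute, and Xpo5, the exporter of microRNA precursors, fell 1.79-fold and 1.70-fold in vitro, and the authors' deposited table put their PPEE at 8.89e-05 and 7.37e-05. Ago3 and Tnrc6c, a partner of Argonautes in repression, rose 1.34-fold and 1.95-fold, and the authors' deposited table put their PPEE at 0.000311 and 0.00141. Of these, limma voom called Ago2 (adjusted p = 0.0177), Xpo5 (adjusted p = 0.0221) and Tnrc6c (adjusted p = 0.0264), but not Ago3 (adjusted p = 0.110). It also called Drosha, the nuclease that cuts primary microRNA transcripts, as higher in vitro (log2 ratio 0.72, adjusted p = 0.0442), whose PPEE in the authors' deposited table was 0.141. Over all recovered genes limma voom called 10.1%. Dicer1, which averaged 2462 normalised reads in vitro, against 2596 in vivo, was not called.

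**Figure D5:**
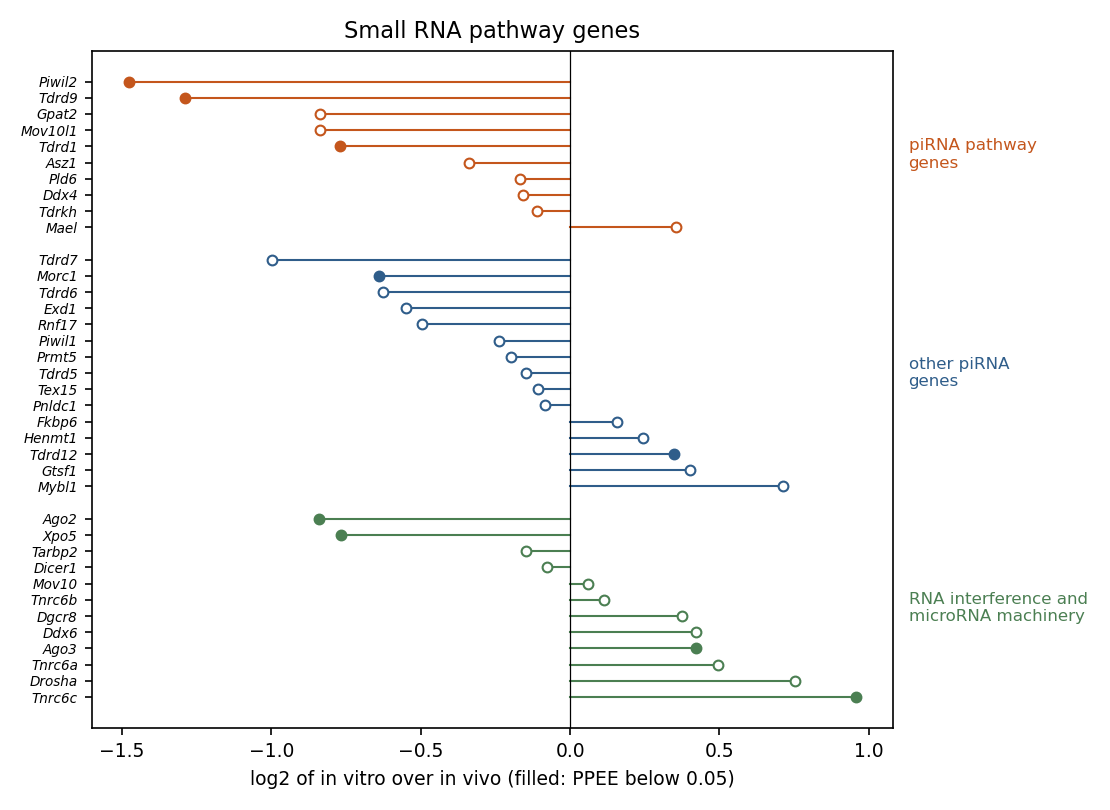
Log2 ratio of in vitro over in vivo for the 10 piRNA pathway genes, 15 other piRNA genes and 12 genes of RNA interference and microRNAs, with filled points for called genes. Means were lower in vitro for 9 of the 10 piRNA pathway genes, 10 of the 15 other piRNA genes and 4 of the 12 RNA interference and microRNA genes, against 5330 of all 10896 genes, and the differences between lists were not tested.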

How the data were processed

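Per the labels' protocols, the kit was SMARTer Ultra Low Input, with 10 ng of total RNA as input and amplification by PCR. The submitters' processing notes name BWA and build mm9; the step that gave gene values and the use of strand are not given in the sources used here. The authors deposited, as a signal, the mean normalised reads of 3 samples for each gene and group, not scaled by length. Their deposited log2 ratio runs in vivo over in vitro, and 0.599 added to each mean gave it back; its sign was turned here.

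Steps of whole reads were found from repeated differences between low means, and means up to 600, a limit chosen after seeing the data, were solved to 10 digits. In vitro 95.5% and in vivo 95.8% had 1 whole solution and 0 had more. Values shifted at random had a solution in 0.0211% of cases in vitro and 0.0614% in vivo up to a mean of 100, and in 32.5% and 48.0% between 400 and 600, where Mael and Tdrkh lie. The libraries' size factors came to 1.09, 0.965 and 0.806 in vitro and to 1.24, 1.13 and 0.885 in vivo. All 8171 solved genes went into limma 3.58.1 (voom, R 4.3.3), scaled by these factors, 2-sided, with Benjamini-Hochberg adjustment over them. Scripts were tested on simulated data. Nothing says that samples came from separate cultures or animals, so p-values measure the spread between samples only, and reads carry no molecular identifiers.

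Genes named were the 10 members, Piwil1, Piwil4 and called genes of both other small RNA lists; other names were added after their values were seen. Members and lists were chosen with earlier results of these data known. RefSeq (GRCm38.p6) gave symbols for 10875 of the table's identifiers and the promoters, and GENCODE M21 the overlaps. Alternatives were other constants, centring, PPEE and fold limits, minimum values, scalings, limma trend, means up to 200 and leaving out each library.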

Additional observations from a re-analysis of the deposited data

How the results depend on the processing

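The 30 recomputed ratios of the 10 genes from the deposited means (no constant, a constant of 1, centring on the median gene) all kept their sign. The count of 3 genes lower in vitro was also 3 with a PPEE below 0.01, with at least a 1.5-fold change and with a mean of at least 10, and 0 were higher. By limma voom on recovered reads 1 gene was lower, of 6 that could be tested and with Tdrd1 and Tdrd9 not among them. Other library sizes, quantile normalization, limma trend and means up to 200 (added after seeing the data) left that count at 1, and at least 10 reads removed no gene. Leaving out single libraries gave 0 to 2 lower and 0 to 1 higher genes, and 50 to 2073 calls over all genes, against 826 with all libraries and 366 of 5805 genes with means up to 200. In every fit, also that with all libraries, limma took 1 spread per gene from both groups together. The sign changed once, for Pld6, whose log2 ratio lay between -0.46 and 0.19 on leaving out libraries and was 0.19 without in vitro library B; the cause was not tested. No paired analysis was possible because the recovered libraries carry no replicate number and the deposited columns are group means. Pld6 and Piwil2 rest on few reads (47 and 57 over the in vitro libraries), the part of which was not tested, and Ddx4, Asz1, Tdrd1 and Tdrd9 have no spread per library here.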
